A study of Mus musculus with 7 samples.

Results

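The genes described here are 9 genes of steroid hormone action: the oestrogen receptors Esr1, Esr2 and Gper1, the progesterone receptor Pgr, the glucocorticoid receptor Nr3c1, the mineralocorticoid receptor Nr3c2, the steroid enzymes Srd5a1 and Hsd11b1, and Fkbp5, a co-chaperone of the receptors and a target of their hormones. They were chosen by name for their role in steroid action, with earlier results of these data known, and all 9 were found among the 21899 genes of the files. Over the analysed libraries, 5 of the 9 averaged 10 counts or more (Nr3c1, Nr3c2, Srd5a1, Hsd11b1 and Fkbp5), as did 13627 of all genes. Esr1, Esr2, Gper1 and Pgr averaged fewer and are given by their counts.

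Steroid receptors of the nuclear family are transcription factors that wait in the cell in a complex with heat shock proteins and immunophilins, bind their hormone, and then act on response elements in DNA. Enzymes in the target cell decide how much active hormone reaches the receptor, since they activate or inactivate steroids on site. In pancreatic islets glucocorticoids are known to restrain insulin secretion, and oestrogen receptors have known roles in β-cell survival and secretion.

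RNA-seq was performed on islets of second-generation (F2) C57BL/6J males kept on standard chow. The grandmothers (F0 dams, wild type) received daily subcutaneous injections in late gestation, of dihydrotestosterone dissolved in benzyl benzoate and corn oil for the androgen-exposed (AE) line, which the labels call hyperandrogenism, or of the same solvents alone for the control line. Their F1 sons were bred with unrelated wild-type females, so that the F2 males were not injected themselves and neither group carried an engineered allele. Islets were freed with collagenase, picked by hand and cultured. The age of the F2 islet donors is not given in the sources used here, nor is the number of animals behind a library. The labels list 3 control-F2 and 4 AE-F2 samples, of which control-F2 replicate 1 and AE-F2 replicate 4 were analysed and the other 5 were not analysed here.

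With 1 library per group there is no replicate error, no test was possible, and every comparison is between these libraries and not between the conditions. The control-F2 library held 16285888 counts and the AE-F2 library 21278513. Control-F2 and AE-F2 name these libraries from here on. Levels are given as CPM, counts per 1000000 counts after scaling by TMM, which matches the libraries on the bulk of their genes, and levels of different genes are compared as CPM per kilobase of the longest transcript, or of all merged exons where said. Plain CPM, which is not scaled for transcript length, orders which genes of a list are named and is the axis of the figure of levels. Ratios are log2 ratios of AE-F2 over control-F2, and the interval after each is a 95% Clopper-Pearson interval that covers counting error only. It may be too narrow even for that, since PCR copies are not independent molecules. The islet label was borne out by the insulin genes, with Ins2 at 128295 and 123879 CPM and Ins1 at 48709 and 51033 CPM in control-F2 and AE-F2. In bulk islet RNA, fewer cells of a type and less RNA per cell cannot be told apart.

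The DNA just before the start sites of 3 of the 9 genes is shown because they span the range from a CpG-rich start of an abundant transcript to a CpG-poor start of a transcript near the detection limit. Each is the 250 bases that precede a RefSeq start in GRCm38.p6, written 5′ to 3′ on the strand of the gene, and capitals mark each CpG, the dinucleotide at which DNA is methylated. The windows are chr17:28486150-28486399 on the minus strand for Fkbp5, chr13:69611464-69611713 on the minus strand for Srd5a1 and chr5:139422929-139423178 on the plus strand for Gper1.
Fkbp5: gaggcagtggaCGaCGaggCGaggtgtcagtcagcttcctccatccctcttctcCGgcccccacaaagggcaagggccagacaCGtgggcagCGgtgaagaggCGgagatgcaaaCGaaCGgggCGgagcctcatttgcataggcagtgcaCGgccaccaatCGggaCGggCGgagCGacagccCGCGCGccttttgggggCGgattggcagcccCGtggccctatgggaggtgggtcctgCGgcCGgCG
Srd5a1: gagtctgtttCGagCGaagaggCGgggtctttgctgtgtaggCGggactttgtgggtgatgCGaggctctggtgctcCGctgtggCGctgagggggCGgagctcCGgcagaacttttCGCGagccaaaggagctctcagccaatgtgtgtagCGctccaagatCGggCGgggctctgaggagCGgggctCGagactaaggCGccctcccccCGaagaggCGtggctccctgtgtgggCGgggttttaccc
Gper1: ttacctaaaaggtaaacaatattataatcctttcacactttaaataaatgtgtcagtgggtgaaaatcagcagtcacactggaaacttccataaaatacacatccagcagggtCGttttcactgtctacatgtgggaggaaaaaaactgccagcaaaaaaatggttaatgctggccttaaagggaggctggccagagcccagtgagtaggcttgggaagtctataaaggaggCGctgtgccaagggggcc

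A window was matched for 8 of the 9 genes, with 2 start sites for Esr1. The Fkbp5 window held 23 CpG, that of Srd5a1 20 and that of Nr3c2 17, all above the upper quartile of 16 over all 32851 windows. Esr2 had 12 CpG and Hsd11b1 6, which is the median of all windows. Esr1 had 4 and 7 CpG at its start sites, Pgr had 4 and Gper1 had 2, the lower quartile. Over all genes of the files with a window, the median was 2 CpG for genes with a mean under 10 counts, 10 for 10 to under 100 counts, 16 for 100 to under 1000 counts and 18 for at least 1000 counts. The Fkbp5 window thus lay above the median of its own level class, and Srd5a1, with a mean of 10 to under 100 counts, had a window richer in CpG than the median of its class, whereas Hsd11b1, in the same class, had one poorer in CpG.

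Both strands were also searched for the letters of steroid response elements. The element shared by glucocorticoid, mineralocorticoid and progesterone receptors was searched as AGAACA and TGTTCT with 3 bases between them, and the oestrogen element as GGTCA and TGACC with 3 bases between them. Neither was found in the windows of the 8 genes, and they occur in 0.00913% and 0.0639% of all windows. AGAACA or TGTTCT alone was in none of the 8 genes' windows and in 16.1% of all windows. GGTCA or TGACC alone was in the windows of Esr2 and Nr3c2, 2 matches in each, and in 35.2% of all windows. A match is a run of letters and no site, and no match says only that these letters are not in this window.

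**Figure D1:**
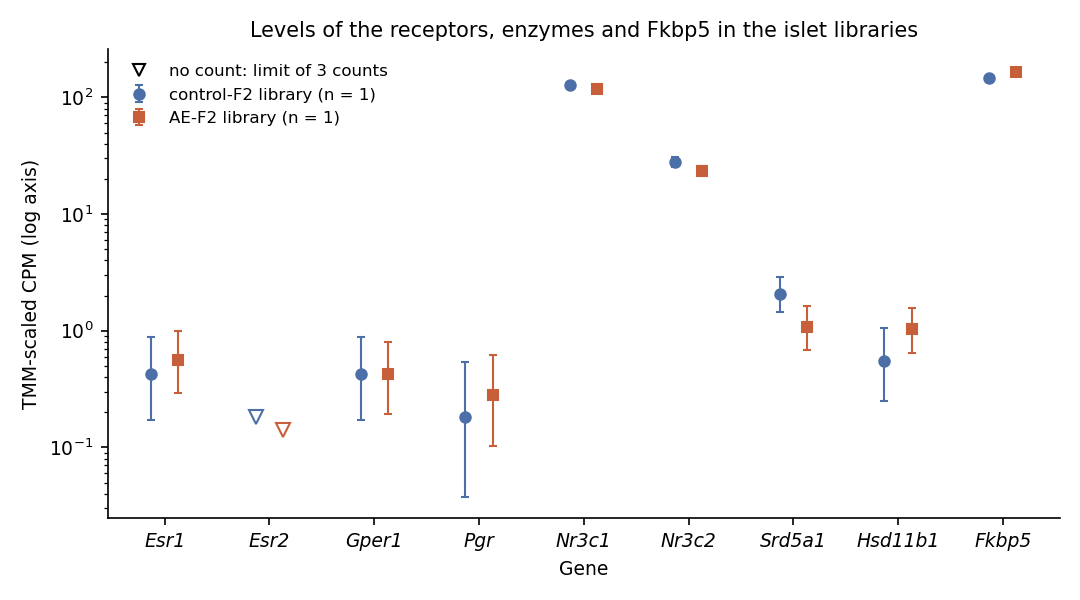
Levels of the 9 genes in control-F2 (circles) and the AE-F2 library (squares), as TMM-scaled CPM on a log axis, with bars for the 95% counting interval and open triangles at the limit that a count of 0 allows. Nr3c1 and Fkbp5 lie above 100 CPM in both libraries, Nr3c2 lies between 23.5 and 28.0 CPM, and the enzymes and sex steroid receptors lie at or under 2.08 CPM. CPM here is not per kilobase of transcript.

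Among the receptors of the 9 genes, the corticoid receptors had the most counts. Nr3c1, which binds glucocorticoids in nearly every cell, had 2098 counts in control-F2 and 2503 in AE-F2, or 129 and 118 CPM. Its level was thus slightly lower in AE-F2, by a log2 ratio of -0.13 (-0.21 to -0.04). Nr3c2, which binds both aldosterone and glucocorticoids with high affinity, had 456 and 499 counts, or 28.0 and 23.5 CPM. Its log2 ratio was -0.25 (-0.44 to -0.07). In a random draw that thinned the deeper AE-F2 library to the control-F2 total, the interval reached across equality, at -0.16 (-0.36 to 0.04). The draw was not repeated and adds its own noise to that value. The exons of Nr3c2 overlap Gm10649 on the opposite strand in part, and the counting is not stated to use strand.

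Per kilobase, the level of Nr3c1 exceeded that of Nr3c2 by 4.23-fold in control-F2 and by 4.61-fold in AE-F2. This proportion within a library needs no scaling between libraries, and it differed between them by a factor of 1.09 (0.946 to 1.26), an interval that includes equality. The levels were 20.0 and 18.3 CPM per kilobase for Nr3c1 and 4.73 and 3.97 for Nr3c2. Nr3c1 was above 80.9% of the 13627 genes in control-F2 and above 79.4% in AE-F2, and Nr3c2 was above 42.0% and 37.8%. The summed counts of both receptors were 2554 and 3002, a log2 ratio of -0.15 (-0.23 to -0.07).

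By contrast, each of the 4 sex steroid receptors had 12 counts or fewer in either library. Esr1, the nuclear oestrogen receptor ERα, had 7 counts in control-F2 and 12 in AE-F2. Its log2 ratio of 0.36 had an interval from -1.07 to 1.98, so that neither a decrease nor an increase past 2-fold lay outside it. Gper1, the membrane receptor that responds to oestrogen, had 7 and 9 counts (log2 ratio -0.04, -1.61 to 1.64). Pgr, itself a classical oestrogen-induced gene, had 3 and 6 counts (log2 ratio 0.51, -1.61 to 3.25). Esr2, the nuclear receptor ERβ, had no count in either library, which by a limit of 3 counts allows a level of up to 0.184 CPM in control-F2 and 0.141 CPM in AE-F2. Differences in these 4 receptors were not detectable at this depth.

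Counts of all 4 together were 17 in control-F2 and 27 in AE-F2, a log2 ratio of 0.27 (-0.64 to 1.25). Per kilobase, Gper1 stood at 0.169 and 0.167 CPM, Esr1 at 0.0677 and 0.0891 and Pgr at 0.0267 and 0.0410.

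Both enzymes among the 9 genes were low, and their ratios were on opposite sides of equality. Srd5a1, a steroid reductase that converts testosterone to dihydrotestosterone, had 34 counts in control-F2 and 23 in the deeper AE-F2 library, or 2.08 and 1.08 CPM. Its log2 ratio of -0.94 (-1.78 to -0.14) fell short of 2-fold, and its interval lay below equality. It passed 2-fold, at -1.06, in the random draw that thinned AE-F2 to the control-F2 total, a value that carries the noise of that draw. Some exonic bases of Srd5a1 overlap Gm17108 on the same strand, and reads there cannot be told apart. Hsd11b1, the reductase that regenerates active glucocorticoid inside cells, had 9 and 22 counts, or 0.552 and 1.04 CPM. Its log2 ratio of 0.86 had an interval from -0.27 to 2.21, which includes equality. Per kilobase, Srd5a1 was above 14.7% and 7.15% of genes and Hsd11b1 above 6.08% and 9.30% in control-F2 and AE-F2. Srd5a1 stood higher per kilobase than Hsd11b1 in control-F2, at 0.789 against 0.279 CPM, but with 0.409 against 0.523 CPM the order was the other way round in AE-F2. Over merged exons Srd5a1 was the higher in both, at 0.717 against 0.13 CPM per kilobase in control-F2 and 0.372 against 0.244 in AE-F2.

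Fkbp5, the immunophilin that binds with HSP90 to the receptor complex and is induced by glucocorticoids, androgens and progestins, was the most abundant of the 9 genes per kilobase. It had 2399 counts in control-F2 and 3491 in AE-F2, or 147 and 164 CPM. The log2 ratio was 0.16 (0.08 to 0.23), a fold of 1.12. At 38.1 and 42.6 CPM per kilobase it was above 91.3% and 92.4% of genes. Its order with Nr3c1 depends on the length used. Over all merged exons of each gene, Fkbp5 stood at 15.5 and Nr3c1 at 16.7 CPM per kilobase in control-F2, but at 17.4 and 15.3 in AE-F2.

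Relative to its receptor, Fkbp5 was higher in AE-F2 without any scaling, with a per-kilobase proportion of Fkbp5 to Nr3c1 of 1.91 in control-F2 and 2.33 in AE-F2, a factor of 1.22 (1.13 to 1.32). Fkbp4, the immunophilin that takes the place of Fkbp5 in the activated receptor complex, stood at 220 and 199 CPM, a log2 ratio of -0.15 (-0.21 to -0.08). The per-kilobase proportion of Fkbp5 to Fkbp4 was 0.464 and 0.572, a factor of 1.23 (1.15 to 1.32). These pairs were chosen after the values were seen.

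**Figure D2:**
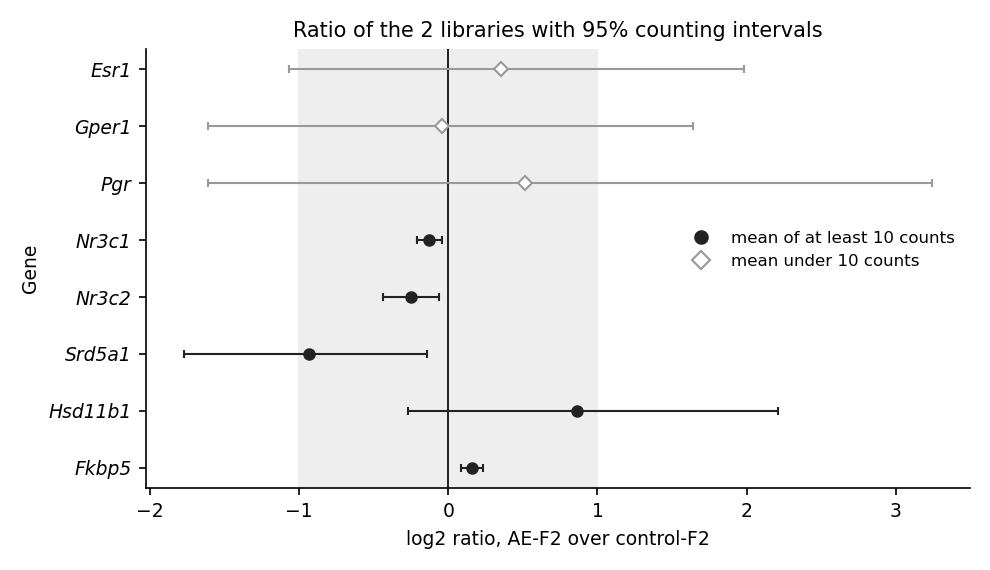
Log2 ratios of AE-F2 over control-F2 for the 8 genes with a count, with bars for the 95% counting interval, filled circles for genes averaging 10 counts or more and open diamonds for the others, and the range within 2-fold shaded. Srd5a1 at -0.94 and Hsd11b1 at 0.86 lie near the edges of the shaded range with wide intervals, while Nr3c1, Nr3c2 and Fkbp5 lie between -0.25 and 0.16 with narrow ones.

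Of the 5 genes averaging 10 counts or more, 0 were at least 2-fold higher and 0 at least 2-fold lower in AE-F2, where 3.16% and 0.653% of all 13627 genes were. For Srd5a1 and Hsd11b1 the fitting background is that of the 3087 genes with a mean of 10 to under 100 counts, of which 13.0% were at least 2-fold higher and 2.3% at least 2-fold lower. The interval lay above equality for 1 of the 5 (Fkbp5), against 13.4% of all genes, and below it for 3 (Nr3c1, Nr3c2 and Srd5a1), against 13.4%. Nr3c1 and Fkbp5 belong to the 3471 genes averaging 1000 counts or more, for which 16.3% of intervals lay above and 24.9% below equality. An interval off equality was thus no rare feature among genes as abundant as these. The median log2 ratio of the 5 genes was -0.13, and that of all genes 0.00.

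Lists of genes of the pathway, also drawn up with earlier results known, were next described in the same way. Fkbp5, Srd5a1, Hsd11b1 and Pgr appear on them again. The mineralocorticoid target list shares Fkbp5, Sgk1, Per1, Tsc22d3 and Zbtb16 with the glucocorticoid target list, so the tallies of these lists are not independent. Among 11 other steroid receptors, 8 averaged 10 counts or more, with 2 higher and 6 lower in AE-F2, a median log2 ratio of -0.12 and no interval off equality. The membrane-associated progesterone receptor components Pgrmc1 and Pgrmc2 stood at 167 and 164 CPM and at 104 and 107 CPM. The oestrogen-related orphan receptors Esrra and Esrrg had log2 ratios of -0.11 and -0.13, and the progestin receptor Paqr9 one of -0.20. Of the 8, 0 were past 2-fold in either direction, where 3.16% of all genes were at least 2-fold higher and 0.653% lower.

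Receptor chaperones, which hold unliganded receptors ready for hormone, were lower for 14 of 16 genes, Fkbp5 being 1 of the 2 that were higher. The interval lay below equality for 9 and above it for 1 (Fkbp5), where 24.9% and 16.3% of all genes averaging 1000 counts or more, as all of these but Ppid do, lay below and above. The median log2 ratio was -0.14, and the summed level was 4950 CPM in control-F2 and 3993 CPM in AE-F2. The abundant chaperones Hspa8, Hsp90ab1 and Hsp90aa1 had log2 ratios of -0.35, -0.32 and -0.39, and the HSP70-interacting St13 one of -0.17. Dnajb1, a heat-inducible co-chaperone of HSP70, was the 1 gene at least 2-fold lower, as were 0.653% of all genes, at 217 and 61.6 CPM with a log2 ratio of -1.82 (-1.91 to -1.72). Fkbp5 thus lay on the other side of equality from the abundant chaperones named here.

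Coregulators, which link the receptors to chromatin, were at least 2-fold lower for 1 of 19 genes and at least 2-fold higher for 0, against 0.653% and 3.16% of all genes. With 6 higher and 13 lower, the interval lay above equality for 2 and below it for 7, against 13.4% of all genes on each side, and the list had a median of -0.06, which turned to 0.01 once trends with GC content and length were removed. The corepressor Ncor1 had a log2 ratio of -0.09, the coactivators Ncoa2 and Ncoa4 had -0.09 and 0.05, and the demethylase Kdm1a had 0.05. Ppargc1b, a coactivator of oestrogen-related receptors, had 45 counts in control-F2 and 26 in AE-F2, a log2 ratio of -1.16 (-1.93 to -0.44), and 2.3% of genes with a mean of 10 to under 100 counts were at least 2-fold lower.

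Of 29 listed enzymes of androgens and oestrogens, 27 were analysed, and 10 of these had no count in either library. Those 10 included Cyp19a1, the aromatase that makes oestrogens, the other classical reductase Srd5a2, and Hsd17b3, which makes testosterone. Of 14 that averaged 10 counts or more, 7 were higher and 7 lower, with 0 past 2-fold and a median of -0.02, which turned to 0.03 with a minimum mean of 50 counts. Over all genes 3.16% were at least 2-fold higher and 0.653% lower. The interval lay above equality for 1 of the 14 and below it for 4, against 13.4% of all genes on each side. Srd5a1 was among the 4. Hsd17b12, known mainly for fatty acid elongation, stood at 163 and 141 CPM with a log2 ratio of -0.21. Akr1c14, the reductase that acts on dihydrotestosterone after Srd5a1, stood at 113 and 99.7 CPM with a log2 ratio of -0.18 (-0.27 to -0.09).

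Akr1c12 stood at 47.3 and 54.2 CPM, but its deposited counts were not whole, as can happen when reads are shared between near-identical genes, and its value is uncertain. Hsd17b4 and Hsd17b11 had log2 ratios of 0.03 and -0.06. Srd5a3, of the same named family, exceeded Srd5a1 per kilobase by 10.6-fold in control-F2 and by 22.9-fold in AE-F2. The proportion differed by a factor of 2.16 (1.21 to 3.92). The log2 ratio of Srd5a3 itself was 0.17 (-0.05 to 0.38), which includes equality, and Srd5a1 had only 34 and 23 counts. Over merged exons the levels were 4.0 against 0.717 CPM per kilobase in control-F2 and 4.49 against 0.372 in AE-F2. This pair too was chosen after the values were seen.

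Of 18 enzymes of corticoids and of the early steps of steroid synthesis, 6 had no count in either library. They included Cyp11a1, which starts all steroid synthesis, and Cyp11b1 and Cyp11b2, which complete corticosterone and aldosterone. Of 10 genes averaging 10 counts or more, 4 were higher and 6 lower, with 0 past 2-fold (all genes: 3.16% higher, 0.653% lower) and a median of -0.10, or -0.01 and -0.17 with a minimum mean of 1 and 50 counts. The interval lay above equality for 2 and below it for 1 (Stard3), against 13.4% of all genes on each side. The 2 were Fdx1, an electron carrier of mitochondrial P450 enzymes, with a log2 ratio of 0.43 (0.10 to 0.77), and Hsd3b2, a steroid dehydrogenase gene with counts that were not whole, with 0.92 (0.31 to 1.58), both named after their values were seen. H6pd, which supplies the cofactor that lets Hsd11b1 work as a reductase, was at 52.9 and 53.5 CPM, with a log2 ratio of 0.01. Por, the electron donor of microsomal cytochromes P450, had a log2 ratio of -0.03, and the sterol transporters Stard3 and Tspo had -0.32 and -0.23. Hsd3b7, a bile acid enzyme, had -0.17. Hsd11b2, which inactivates glucocorticoid and so shields Nr3c2 from it, had 0 counts in control-F2 and 2 in AE-F2.

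**Figure D3:**
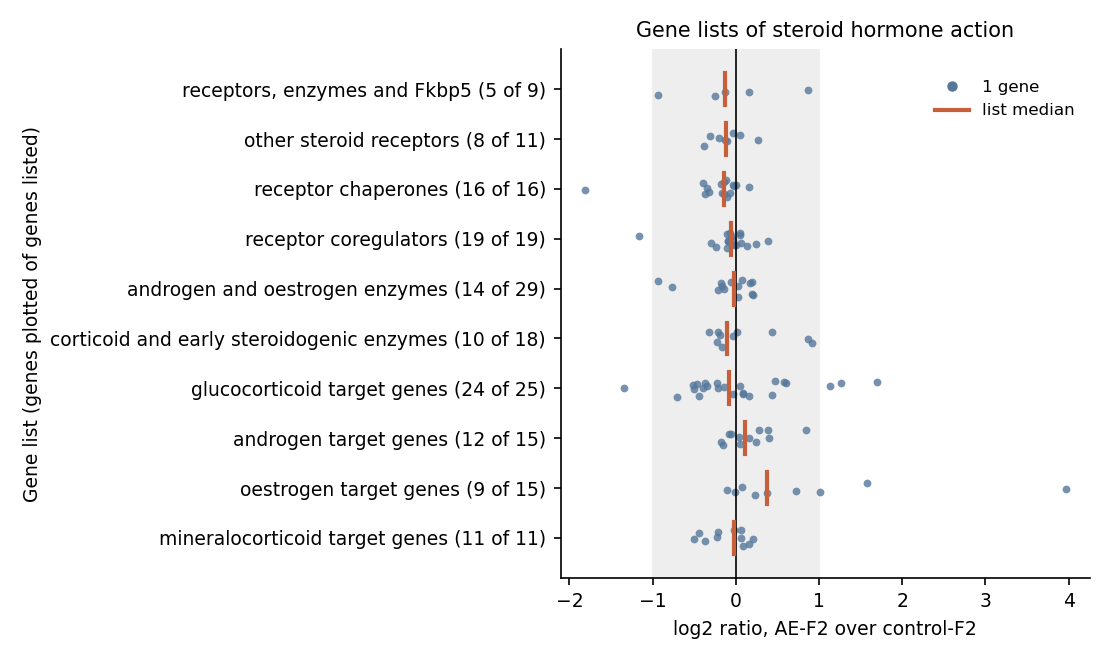
Log2 ratios of AE-F2 over control-F2 for each gene averaging 10 counts or more (points) on 10 lists of steroid hormone action, with a vertical bar at each list's median and the range within 2-fold shaded. Medians lie between -0.14 for the chaperones and 0.37 for the oestrogen target genes.

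Among the target genes of the receptors, those of glucocorticoids were split in direction. Of 24 glucocorticoid target genes averaging 10 counts or more, 11 were higher and 13 lower, with a median of -0.08, or -0.22 with a minimum mean of 50 counts. The interval lay above equality for 9 and below it for 10, where each side held 13.4% of all genes, and 3 were at least 2-fold higher and 1 at least 2-fold lower, against 3.16% and 0.653%. Fkbp5 was among the 9, and so was the glutamine synthetase gene Glul, at 527 and 548 CPM (log2 ratio 0.06, 0.02 to 0.10). Dusp1, a phosphatase of MAP kinases that is also an immediate early gene, was lower, at 245 and 96.8 CPM, a log2 ratio of -1.34 (-1.42 to -1.26). The G protein regulator Rgs2 and the metallothionein Mt1 were lower too, with log2 ratios of -0.52 and -0.21.

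The 3 target genes past 2-fold higher had few counts. Lcn2, a secreted iron-siderophore carrier also made by neutrophils and inflamed epithelium, had 6 counts in control-F2 and 27 in AE-F2 (log2 ratio 1.70, 0.48 to 3.35). The anti-inflammatory Anxa1 had 14 and 45 counts (1.27, 0.41 to 2.28), and Angptl4, a lipase inhibitor, had 13 and 38 (1.13, 0.23 to 2.20). Among genes of this abundance, with a mean of 10 to under 100 counts, 13.0% were at least 2-fold higher. Of the 5 genes of the list with the highest mean CPM, Fkbp5 and Glul were higher and Rgs2, Dusp1 and Mt1 lower, as the plot of glucocorticoid target genes shows.

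**Figure D4:**
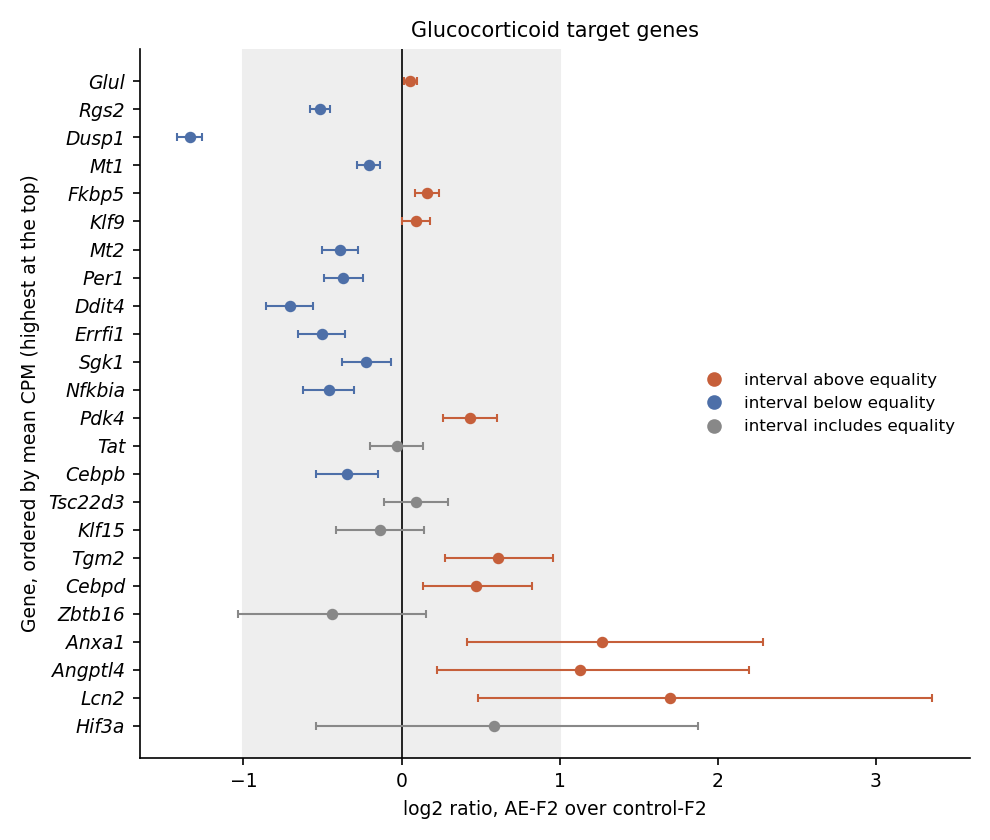
Log2 ratios of AE-F2 over control-F2 of 24 glucocorticoid target genes, ordered by mean CPM from the top, with bars for the 95% counting interval coloured by its side of equality and the range within 2-fold shaded. Dusp1 at -1.34 is the lowest, Fkbp5 lies at 0.16, and the 3 genes past 2-fold higher are near the bottom of the order, where counts are few.

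Androgen target genes numbered 12 averaging 10 counts or more, of which 8 were higher and 4 lower, with 0 past 2-fold (all genes: 3.16% higher, 0.653% lower) and a median of 0.11, or 0.20 and 0.04 with a minimum mean of 1 and 50 counts. The interval lay above equality for 2, Fkbp5 among them, and below it for 2, against 13.4% of all genes on each side. Ndrg1, a differentiation gene that also responds to low oxygen, had a log2 ratio of -0.08, the elongation factor Ell2 had -0.18, the polyamine enzyme Odc1 had 0.03 and the sorbitol dehydrogenase gene Sord had 0.05. The other gene with an interval above equality was Tmprss2, a membrane protease gene, at 8.71 and 11.5 CPM (0.40, 0.09 to 0.71), which was named after its value was seen.

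Mineralocorticoid target genes were 5 higher and 6 lower of 11, with a median of -0.02 and 0 past 2-fold, where 3.16% of all genes were at least 2-fold higher and 0.653% lower. The interval lay above equality for 3 and below it for 4, against 13.4% of all genes on each side. Fkbp5 was among the 3, and Sgk1 and Per1, also on the glucocorticoid list, were among the 4. The sodium pump subunit Atp1b1 had a log2 ratio of 0.07, though its reads may be shared with other loci since its counts were not whole. The epithelial sodium channel subunit Scnn1b was lower, at 189 and 163 CPM (-0.21, -0.28 to -0.14), and Nedd4l, which removes that channel from the membrane, had -0.02.

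Oestrogen target genes had 7 of 9 higher, with a median of 0.37, 3 at least 2-fold higher and 0 at least 2-fold lower, where 3.16% and 0.653% of all genes were, and 13.0% and 2.3% of genes with a mean of 10 to under 100 counts, to which Ltf and Cxcl12 belong. The interval lay above equality for 5 of the 9 and below it for 0, against 13.4% of all genes on each side. The median was 0.62 with a minimum mean of 1 count and 0.24 with a minimum of 50 counts. Ltf, which encodes lactoferrin, had 1 count in control-F2 and 30 in AE-F2 (log2 ratio 3.96, 1.94 to 9.88). Cxcl12, a chemokine of stromal cells, had 38 and 149 counts (1.58, 1.07 to 2.14), and Igfbp4, an IGF-binding protein, had 56 and 148 counts (1.01, 0.57 to 1.49). Of the genes with the highest mean CPM, Cish was higher, at 17.5 and 28.8 CPM (0.72, 0.52 to 0.93), while Xbp1 had -0.01, Rara -0.11, Ramp3 0.24 and Ccnd1 0.08, the last from counts that were not whole.

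Markers of other cell types that an islet pick can carry also differed between the libraries, and their counts past 2-fold stand against 3.16% of all genes at least 2-fold higher and 13.0% of those with a mean of 10 to under 100 counts. Of 10 mesenchymal markers, 9 were higher in AE-F2 and 4 at least 2-fold higher, with a median of 0.97 and a summed level of 263 CPM in control-F2 and 321 CPM in AE-F2. Col3a1 stood at 17.3 and 34.2 CPM, while the pericyte genes Rgs5 and Pdgfrb had log2 ratios of 0.08 and 0.05. Of 9 immune markers averaging 10 counts or more, 7 were higher and 2 at least 2-fold higher, with a summed level of 247 and 366 CPM over all 10 markers of the list. The 2 were Ptprc, the pan-leukocyte gene, at 4.05 and 16.1 CPM (1.99, 1.61 to 2.40), and the myeloid lysozyme gene Lyz2, at 6.87 and 26.9 CPM (1.96, 1.67 to 2.27). Cd74 stood at 129 and 189 CPM and H2-Aa at 42.2 and 65.8 CPM, while C1qa was lower, at 36.3 and 30.4 CPM.

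Of 8 acinar markers 7 were lower, Ctrb1 and Pnlip among them with log2 ratios of -0.34 and -0.44, and the sum was 2363 and 2127 CPM. Amy2a5, whose control-F2 count was not whole, was the exception, with 0.63. Duct markers were higher for 4 of 6 and at least 2-fold higher for 2 (Krt19 with 11 and 35 counts and Muc1 with 23 and 63), and Krt7 stood at 247 and 292 CPM. Endothelial markers had a median of -0.05, and the 12 endocrine markers a sum of 217399 and 224219 CPM. Their median was 0.00, but the interval lay above equality for 4 and below it for 4, against 13.4% of all genes on each side. The α-cell hormone gene Gcg was higher in AE-F2, at 16025 and 22009 CPM (0.46, 0.45 to 0.46), as was Iapp, with 0.23, while the β-cell transcription factors Nkx6-1 and Pdx1 had -0.26 and -0.17. Gcg, Nkx6-1, Pdx1, Ptprc, Lyz2, Krt19 and Muc1 were named after their values were seen. Of the adipocyte markers, Adipoq, Plin1 and Lep had no count in either library. Fabp4 had 67 and 140 counts (log2 ratio 0.68, 0.25 to 1.12), while Pparg had a log2 ratio of -0.08 (-0.37 to 0.22). The part of the α-cell, β-cell, mesenchymal, immune, acinar and duct cells in the ratios of Hsd11b1, Srd5a1, Nr3c1, Nr3c2, Fkbp5 and the oestrogen and glucocorticoid target genes was not tested.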

How the data were processed

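Per the labels and the study's methods, oligo(dT)-selected islet RNA was made into NEBNext Ultra libraries and sequenced on an Illumina instrument. The methods name HISAT2 for alignment, whereas the submitters' processing notes name Bowtie2, RSEM and DESeq2. The build, annotation and strand setting are not given in the sources used here. The authors deposited estimated counts for each gene, unscaled for depth or length, of which 8.56% (control-F2) and 9.28% (AE-F2) were not whole.

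Samples were grouped by their labels and counts were rounded. Symbols and transcript lengths came from GENCODE M21 (GRCm38), which matched 21806 of 21899 identifiers. In it 247 exonic bases of Nr3c2 overlap Gm10649 on the opposite strand and 476 of Srd5a1 overlap Gm17108 on the same strand, neither analysed here. TMM factors came from edgeR 4.0.16 in R 4.3.3, over genes averaging 10 counts or more. Log2 ratios used a pseudocount of 0.5 counts, intervals exact binomial limits at 95% (scipy 1.17.1), and a count of 0 a limit of 3 counts. With 1 library per group there was no model and no p-value. The computation was tested on simulated data.

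Genes named were the 9 genes, those past 2-fold and the 5 with the highest mean CPM of each list, and the 3 highest of a marker list (some are not reported here). Srd5a3, Hsd11b2, Tmprss2, Fdx1, Hsd3b2, some markers and the enzymes at 0 were named outside this rule with their values known. The members and lists were chosen with earlier results of these data known. Hsd17b8 and Sts were not analysed here. Alternatives were scaling by DESeq2 1.42.0 size factors, upper quartiles, totals, or totals without the 10 most abundant genes, a minimum mean of 1 or 50 counts, a pseudocount of 5 counts, removal of GC and length trends, thinning of the AE-F2 library, 1.5-fold and merged exon lengths. Thinning was a random draw that was not repeated, so its values carry the noise of that draw. Promoter sequences are from RefSeq.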

Additional observations from a re-analysis of the deposited data

How the results depend on the processing

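No paired analysis was possible because the libraries analysed carry replicate numbers 1 and 4 and share none, and leaving out a replicate was not possible with 1 library per group. Nr3c1, Nr3c2, Srd5a1, Hsd11b1 and Fkbp5 kept the sign of their ratio under every alternative that gave them a value, Nr3c1 lying between -0.13 and -0.11, Nr3c2 between -0.26 and -0.16, Srd5a1 between -1.06 and -0.86, Hsd11b1 between 0.57 and 0.97 and Fkbp5 between 0.16 and 0.18. Of the receptors with few counts, Gper1 changed sign in 1 of 9 alternatives, between -0.16 and 0.18. With the AE-F2 library thinned to the control-F2 total in a random draw, 1 of the 9 genes (Srd5a1) was at least 2-fold lower. At a threshold of 1.5-fold, 1 was higher (Hsd11b1) and 1 lower (Srd5a1). Over all genes, 430 were at least 2-fold higher and 89 at least 2-fold lower. These counts became 1198 and 441 with a minimum mean of 1 count, 82 and 22 with a minimum of 50 counts, and 823 and 299 at 1.5-fold, since these settings change which genes are tested or the threshold itself. The list medians turned sign for the coregulators (0.01 without GC and length trends) and for the androgen and oestrogen enzymes (0.03 with a minimum of 50 counts, and just above 0 with upper quartiles). The other list medians kept their sign, with the other steroid receptors between -0.15 and -0.07, the mineralocorticoid target genes between -0.06 and -0.01 and the oestrogen target genes between 0.24 and 0.62. The scalings moved the median of all genes by less than 0.02. Depth limits the sex steroid receptors, Srd5a1 and Hsd11b1 most, and without further libraries the spread between animals is unknown for all 9 genes.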
